A study of Mus musculus with 4 samples.

Results

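Branched-chain amino acid catabolism was followed through 8 genes: *Bcat1*, *Bcat2*, *Bckdha*, *Bckdhb*, *Dbt*, *Bckdk*, *Slc7a5* and *Slc3a2*. They were taken by symbol from a count table of 48587 gene symbols, and all 8 were among the 18916 genes that passed the filter on low counts. The set was chosen by the level of *Bcat1*, which was lower with the *Mettl14* hairpin in these same libraries, so the *Bcat1* values are a description and carry no test. The other 7 genes were added as its partners in the pathway.

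The libraries are poly-A mRNA-seq of primary mouse vascular smooth muscle cells (VSMCs), grown out of the descending aorta of adult C57BL/6J mice after the adventitia was stripped and the endothelium scraped off. Both groups received a lentivirus. The shCTR cells carried a pLKO.1-2A-GFP vector whose hairpin is directed against a plant microRNA (ath-miR-159), and the shMettl14 cells carried 1 hairpin against *Mettl14*, a core subunit of the complex that writes N6-methyladenosine (m6A) on mRNA. Each group had 2 libraries, with the letters A and B, and the labels do not say whether a letter marks a shared culture, so p-values measure only the spread between these libraries.

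Leucine, isoleucine and valine enter many cells through LAT1 (*Slc7a5*), an exchanger that is held at the membrane by its heavy chain 4F2hc (*Slc3a2*). The branched-chain aminotransferases move their amino group to 2-oxoglutarate, in the cytosol by BCAT1 and in mitochondria by BCAT2, which yields glutamate and branched-chain keto acids. The mitochondrial branched-chain keto acid dehydrogenase (BCKDH) complex then commits these keto acids to oxidation. Its E1 part is made of *Bckdha* and *Bckdhb* products, its E2 core of DBT, and the kinase BCKDK shuts it off by phosphorylating E1. *Bcat1* is known for its high level in embryonic tissue and many tumours, whereas *Bcat2* is used by most adult tissues.

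*Bcat1* (ENSMUSG00000030268) occupies chr6:144993835-145076184 of GRCm38 on the minus strand, with 7 coding transcripts, and all gene positions given here are on that build. RefSeq gives it 2 start sites with a promoter window of 250 bases before to 50 bases after the start, and both are shown because the counts are summed over the gene and do not separate the starts. The upstream window is chr6:145076108-145076407 and the downstream one chr6:145048763-145049062, both on the minus strand of GRCm38.p6 and printed 5′ to 3′, with capitals for a CCAAT box (CCAAT, here on the other strand as ATTGG).
Bcat1 upstream start: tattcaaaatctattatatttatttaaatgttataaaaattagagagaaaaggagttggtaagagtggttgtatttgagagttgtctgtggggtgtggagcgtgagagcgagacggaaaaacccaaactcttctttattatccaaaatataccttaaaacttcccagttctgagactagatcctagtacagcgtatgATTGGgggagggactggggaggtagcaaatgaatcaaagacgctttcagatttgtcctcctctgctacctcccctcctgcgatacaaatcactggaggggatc
Bcat1 downstream start: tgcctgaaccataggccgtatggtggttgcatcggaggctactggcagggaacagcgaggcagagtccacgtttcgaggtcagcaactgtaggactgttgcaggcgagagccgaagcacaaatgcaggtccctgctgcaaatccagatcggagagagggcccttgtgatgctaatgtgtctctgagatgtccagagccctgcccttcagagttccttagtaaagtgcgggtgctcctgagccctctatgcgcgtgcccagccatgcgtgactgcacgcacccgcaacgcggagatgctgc
The upstream window had a GC content of 41.0% with 6 CpG, and the downstream one 58.7% with 16 CpG. Both strands were searched for the E-box CACGTG, the amino acid response core TGATGNAA, CCAAT and the GC box GGGCGG, whose matches do not overlap in the printed windows. The upstream window held 1 CCAAT box, 53 bases before the start, and the downstream window held no match. Among 32851 RefSeq promoters, 37.4% held CCAAT, 35.7% GGGCGG, 7.15% CACGTG and 3.97% TGATGNAA. Of the 8 genes, 6 had a window, and none of these windows held CACGTG or TGATGNAA. That of *Slc3a2* held 2 GC boxes, and the first of *Bckdhb* held 3 GC boxes and 2 CCAAT boxes.

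The 3′ UTR of *Bcat1* is 6428 bases long in the GENCODE annotation and holds 2 copies of the 7-base word GTGTTAA. This word had been picked earlier from these libraries because the mRNAs that carry it were lower with shMettl14, so its presence in *Bcat1* is a description. The copies, in capitals with 10 bases on each side, lie at chr6:144999185-144999191 and chr6:144993943-144993949 on the minus strand of GRCm38.
Bcat1 word at base 1072 after the stop codon: tatacattatGTGTTAAatgccaaata
Bcat1 word at base 6314 after the stop codon: agccctgctaGTGTTAAggacccacag
The first copy is in 2 annotated transcripts and the second in 1. The other 7 genes, with 3′ UTRs of 280 to 1910 bases, held no copy. *Mettl14*, the target of the hairpin, held 1 copy in a 3′ UTR of 6439 bases. Of 14261 tested genes with a 3′ UTR, 11.7% held the word, and of the 2198 with a 3′ UTR of at least 3000 bases 32.5% did.

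Totals lay between 114343653 and 124815868 counts per library. A gene at 0 counts could have had an expected count of up to 3, or at most 0.0278 CPM. CPM are counts scaled to a common library size. The scaling used edgeR's trimmed mean of M-values (TMM). *Mettl14* itself had 2050 and 2154 counts in shCTR A and B against 546 and 568 in shMettl14 A and B, which left 25.5% of the shCTR level in letter A and 22.0% in letter B. Even so, edgeR's quasi-likelihood test without a block called 0% of the 18916 genes at an adjusted p under 0.05, and *Mettl14* did not pass either (log2 fold change -2.08, SE 0.25, adjusted p = 1.0). At an unadjusted p under 0.05 it called 315 genes (1.67%), and DESeq2 called 5 genes after adjustment. With the letters as pairs, edgeR called 9 genes (0.0476%), *Mettl14* among them (log2 fold change -2.08, adjusted p = 0.0039).

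The labelled cell type was checked on summed CPM of marker lists. The 7 VSMC markers, led by *Acta2* and *Tagln*, were present in every library and summed to 7421 and 6278 CPM in shCTR A and B and to 4803 and 5237 in shMettl14 A and B. All 7 endothelial markers were present too, at 1902 and 4049 CPM in shCTR and 1795 and 2504 in shMettl14, with *Pecam1* between 477 and 820 CPM. The 6 fibroblast markers summed to between 85.8 and 171 CPM. The leukocyte and the skeletal and cardiac muscle lists stayed between 5.15 and 24.9 CPM, with *Cd3e* at 0 in 3 libraries and *Myod1* at 0 in all 4. Muscle transcripts were not absent, since *Tnnt2* had 4.18 to 9.9 CPM. *Myh4* had 5.5 and 0.278 CPM in shCTR A and B and 0 in both shMettl14 libraries, and *Myh6* had 4.14 CPM in shCTR A alone. In such bulk samples, fewer cells of a type and less RNA per cell cannot be told apart.

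*Bcat1* was the one gene of the 8 with a large difference, and the difference was of the same size in both letters. Its counts were 3186 in shCTR A, 9020 in shCTR B, 1172 in shMettl14 A and 3913 in shMettl14 B, which are 28.1, 83.5, 9.87 and 30.1 CPM. Within letter A the shMettl14 library held 35.2% of the shCTR level, and within letter B 36.0%, as log2 ratios -1.51 and -1.47. The letters were as far apart as the groups, since the B library held 2.98 times the A library in shCTR and 3.05 times in shMettl14. The groups therefore overlapped, since shMettl14 B at 30.1 CPM was above shCTR A at 28.1.

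The group means of *Bcat1* were 55.8 ± 39.2 CPM (SD, n = 2) in shCTR and 20.0 ± 14.3 (SD, n = 2) in shMettl14, with a fitted log2 fold change of -1.48 (SE 0.74). The size of that estimate rested on which letters were present, from -0.49 without shCTR B, through -0.89 without shMettl14 A and -2.06 without shCTR A, to -2.49 without shMettl14 B. Among all genes tested, 30 had a lower log2 ratio than *Bcat1* in both letters, and with a mean of at least 10 CPM the only one was *Mettl14*. That place follows from the choice of *Bcat1* by its fall in these libraries. Between the letters, 12.3% of the genes differed by more than *Bcat1* in the shCTR libraries, and 6.83% by more in the shMettl14 libraries. A predicted gene on the other strand, *Gm26666*, overlaps 3.62% of the *Bcat1* exon bases and had 2 to 9 counts per library.

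Endothelial markers were higher in B than in A in both groups, as *Bcat1* was. The endothelial sum was 2.13 times as high in B as in A in shCTR and 1.39 times in shMettl14, with 6 of its 7 markers higher in B in either group. The fibroblast sum was 1.99 and 1.45 times as high, but through *Dcn* (68.3 and 160 CPM in shCTR A and B), and the other 5 of its 6 markers were lower in B in shCTR. The VSMC sum was 0.846 times as high in B as in A in shCTR and 1.09 times in shMettl14. The leukocyte sum was 0.694 and 0.789 times as high in B, and the skeletal and cardiac muscle sum 0.456 and 1.44 times. Between the groups, the endothelial sum in shMettl14 was 94.4% of shCTR in letter A, where *Bcat1* was at 35.2%, and 61.8% in letter B, where *Bcat1* was at 36.0%. *Emcn* made up much of the endothelial sum, with 649 and 2099 CPM in shCTR A and B and 484 and 1077 CPM in shMettl14 A and B. *Emcn* was at 74.6% and 51.3% of shCTR in letters A and B, and *Cdh5* at 112% and 75.4%. In letters A and B, the VSMC sum was 64.7% and 83.4% of shCTR, the fibroblast sum 104% and 75.7%, the leukocyte sum 79.3% and 90.0%, and the skeletal and cardiac muscle sum 20.7% and 65.2%. The part of the cell mixture in the level of *Bcat1* was not tested.

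**Figure D1:**
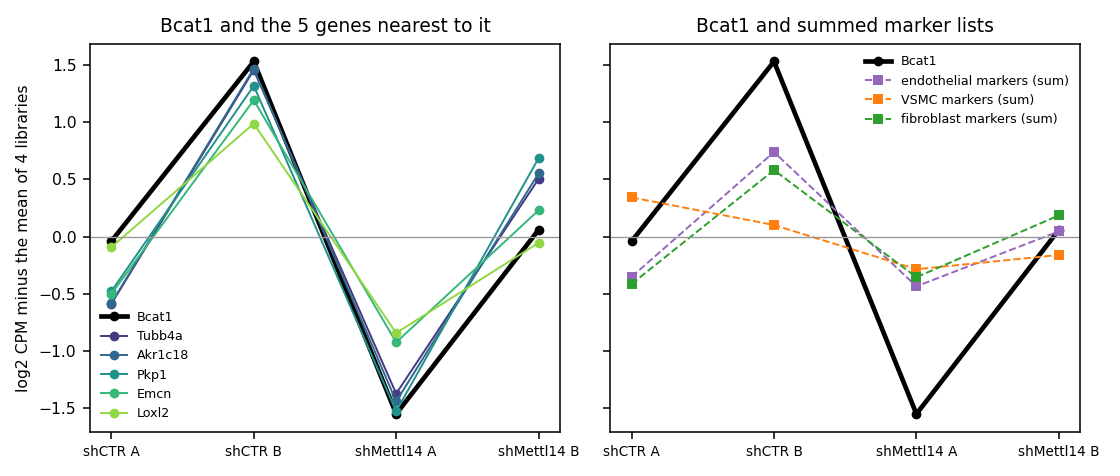
Log2 CPM of each gene or summed marker list minus its mean over the 4 libraries, on the y axis, for the libraries on the x axis; left, *Bcat1* and the 5 genes nearest to it, right, *Bcat1* and the summed endothelial, VSMC and fibroblast markers. *Bcat1* is lower in the shMettl14 library of either letter and higher in B than in A in both groups, and the endothelial and fibroblast sums share the second feature, the fibroblast sum through *Dcn*.

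The genes whose levels were most like those of *Bcat1* were sought among 9097 genes with a mean of at least 10 CPM, by the Euclidean distance between centred log2 CPM over the 4 libraries. The nearest was *Tubb4a*, a beta-tubulin gene, at a distance of 0.73, with 24.1 and 99.4 CPM in shCTR A and B and 14.0 and 51.4 in shMettl14 A and B. It was followed by *Akr1c18*, an aldo-keto reductase gene (0.742), *Pkp1*, which encodes a desmosomal plakophilin (0.792), *Emcn*, an endothelial sialomucin gene that is also in the endothelial list (0.862), and *Loxl2*, a lysyl oxidase-like gene of the matrix (0.899). These 5 genes were higher in B than in A in both groups and lower with shMettl14 in both letters, but by less than *Bcat1*, with log2 fold changes between -0.94 and -0.72. They were picked by likeness to *Bcat1* over these same libraries, so the shared pattern follows from the choice. None of the partners was near: the 6 that could be compared lay between 2.18 (*Bckdk*) and 2.75 (*Bckdha*), against a median of 2.18 over all genes, and *Bckdhb* was below 10 CPM.

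*Bcat2* (ENSMUSG00000030826, chr7:45570153-45589711, plus strand), the mitochondrial aminotransferase, differed in direction between the letters. It had 33.3 and 18.8 CPM in shCTR A and B and 23.6 and 23.7 CPM in shMettl14 A and B. Both shMettl14 libraries thus lay between the shCTR libraries, at 70.7% of shCTR in letter A and 126% in letter B. The log2 fold change was -0.14 (SE 0.33, adjusted p = 1.0), and it turned to 0.33 without shCTR A. Per length, *Bcat1* made up 26.0% and 65.0% of the transcripts of the aminotransferase pair (as reads per length) in shCTR A and B, and 14.9% and 34.7% in shMettl14 A and B. The share was lower with shMettl14 within either letter, and shMettl14 B still exceeded shCTR A. These shares were computed over merged exons and became 18.3%, 54.1%, 10% and 25.2% with the longest transcript as the length. *0610005C13Rik* on the other strand overlaps 15.9% of the *Bcat2* exon bases.

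The genes of the BCKDH complex gave no call. *Dbt* (ENSMUSG00000000340, chr3:116513070-116549981, plus strand), whose product forms the E2 core that carries the acyl group, had 19.5 and 20.9 CPM in shCTR A and B and 23.5 and 24.6 CPM in shMettl14 A and B. It was the one gene of the 8 with both shMettl14 libraries above both shCTR libraries, a pattern that 14.7% of all genes tested had. Means were 20.2 ± 0.986 and 24.1 ± 0.794 CPM (SD, n = 2 each), with a log2 fold change of 0.25 (SE 0.20, adjusted p = 1.0).

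*Bckdha* (ENSMUSG00000060376, chr7:25629946-25658981, minus strand), which encodes the E1 alpha subunit, had 13.1 and 7.68 CPM in shCTR A and B and 13.2 and 12.4 CPM in shMettl14 A and B. Only shCTR B stood apart, and the log2 fold change of 0.30 (SE 0.34, adjusted p = 1.0) became -0.033 without it. *B3gnt8* on the other strand overlaps 61.7% of the *Bckdha* exon bases, and it had 56 to 126 counts against 829 to 1614 for *Bckdha*. Whether the counting used strand is not given in the sources used here.

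*Bckdhb* (ENSMUSG00000032263, chr9:83925145-84124240, plus strand), which encodes the E1 beta subunit, had the lowest CPM of the 8, with 6.71 and 7.37 CPM in shCTR A and B and 5.91 and 7.37 CPM in shMettl14 A and B. Its log2 fold change was -0.084 (SE 0.29, adjusted p = 1.0), and it was 0.067 without shMettl14 A. *Bckdk* (ENSMUSG00000030802, chr7:127904082-127910221, plus strand), the kinase that inhibits the complex, had 53.8 and 47.6 CPM in shCTR A and B and 47.3 and 48.5 CPM in shMettl14 A and B. All libraries other than shCTR A lay between 47.3 and 48.5 CPM. Its log2 fold change was -0.08 (SE 0.19, adjusted p = 1.0), and it was 0.015 without shCTR A.

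The log2 fold changes of the transporter chains were small, and neither passed the test. *Slc3a2* (ENSMUSG00000010095, chr19:8706882-8723369, minus strand) had the highest CPM of the 8, with 235 and 212 CPM in shCTR A and B and 207 and 168 CPM in shMettl14 A and B. Both shMettl14 libraries were below both shCTR libraries, which held for 13.3% of all genes and for no other gene of the 8. They had 88.2% and 79.2% of the shCTR level in letters A and B, with a log2 fold change of -0.25 (SE 0.21, adjusted p = 1.0). *Slc7a5* (ENSMUSG00000040010, chr8:121881150-121907694, minus strand) had 60.8 and 50.5 CPM in shCTR A and B and 60.5 and 61.4 CPM in shMettl14 A and B. Here shCTR B was the low library, and the log2 fold change of 0.13 (SE 0.20, adjusted p = 1.0) was 0.00043 without it. That of *Slc3a2* ranged from -0.41 to -0.11 when 1 library was left out.

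**Figure D2:**
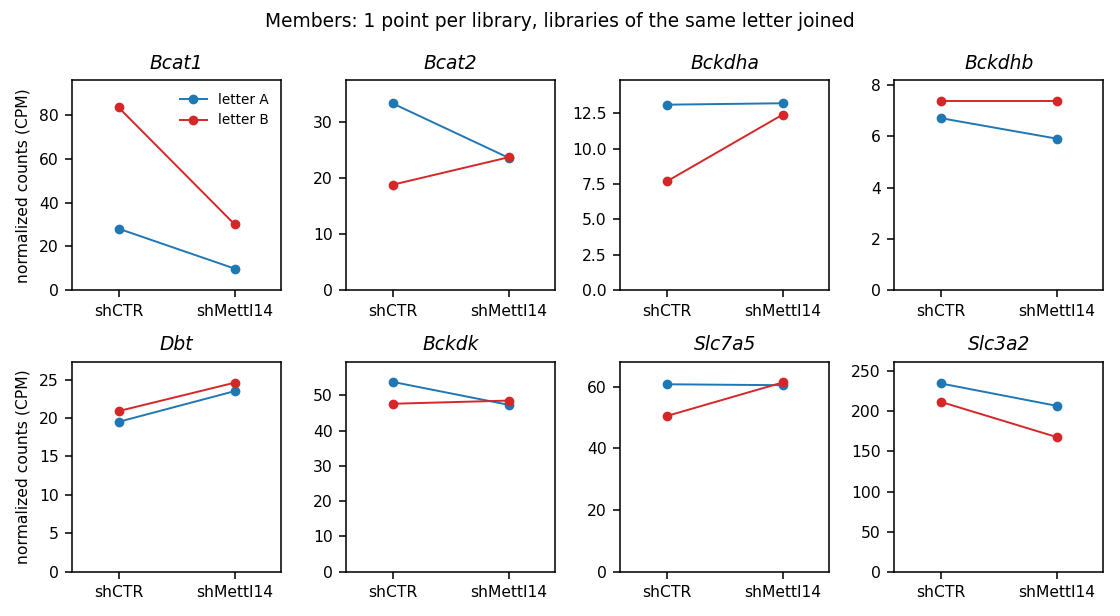
TMM-scaled counts (CPM) on the y axis (from 0, with its own scale in each panel) of the 8 genes in shCTR and shMettl14, 1 point per library, with libraries of the same letter joined. The *Bcat1* lines run down from 28.1 to 9.87 CPM and from 83.5 to 30.1 CPM, while the lines of *Bcat2*, *Bckdk* and *Slc7a5* run in opposite directions in the letters.

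Over the 8 genes, 0 passed an adjusted p under 0.05 in edgeR, and 0 passed an unadjusted one. With DESeq2 and with the letters as pairs, 1 gene had an unadjusted p under 0.05, which was *Bcat1* by both, the gene picked on this contrast. The lowest unadjusted p of the other 7 genes was 0.27, and for 5 of them the log2 fold change was smaller than its standard error. Their median log2 fold change was -0.08, against 0.0094 over all genes tested. Within both letters, 3 of the 8 genes were lower (*Bcat1*, *Slc3a2* and *Bckdhb*, the last at 99.9% of shCTR in letter B), against 27.6% of all genes. In both letters, 2 were higher (*Dbt* and *Bckdha*, the last by 0.016 in letter A), against 30.0%. With library totals in place of TMM the median of all genes shifted by 0.08 in letter A and 0.14 in letter B, and then *Slc7a5* in letter A and *Bckdhb* in letter B were on the higher side. With the letters as pairs, edgeR called 0.0476% of all genes, and *Bcat1* among them, from which nothing is read since it was chosen on this contrast.

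The lowest count of the 8 genes in any library was 702, and counting error alone gave a coefficient of variation of at most 3.77%.

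Compared per length, as reads per kilobase of merged exons after the same scaling (RPKM), *Slc3a2* stood at a mean of 58.2 over the 4 libraries, followed by *Slc7a5* at 15.7, *Bckdk* at 13.3, *Dbt* at 6.61, *Bcat2* at 6.37, *Bckdha* at 6.11, *Bcat1* at 4.06 and *Bckdhb* at 3.79. Of neighbours in this order, those with ranges that did not overlap were *Slc3a2* and *Slc7a5*, and *Bckdk* and *Dbt*. The kinase had a higher RPKM than *Bckdha*, *Bckdhb* and *Dbt* in every library, and a lower one than *Dld* (23.8 to 27.9 RPKM), whose product is the E3 subunit that the complex shares with other dehydrogenases. *Bcat1* ranged from 1.06 in shMettl14 A to 8.96 in shCTR B RPKM, in proportion the widest range of the 8. Its mean was 5.98 RPKM in shCTR, the sixth of the 8, and 2.14 RPKM in shMettl14, the lowest of the 8.

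Ratios between partners within a library do not depend on how libraries are scaled. Per length, *Slc7a5* to *Slc3a2* was 0.247 and 0.226 in shCTR A and B and 0.278 and 0.347 in shMettl14 A and B. Both shMettl14 libraries were above both shCTR libraries, with a two-sided exact permutation p of 0.33, the smallest that 2 against 2 libraries allow (0.889 adjusted over 4 pairs, and no lower for the other 3). *Bckdha* to *Bckdhb*, the subunits of E1, was 1.85 and 0.99 in shCTR and 2.13 and 1.60 in shMettl14 (exact p = 0.667). *Dbt* to *Bckdha* was 0.844 and 1.54 in shCTR and 1.01 and 1.13 in shMettl14 (exact p = 1.0). *Bckdk* to *Ppm1k*, the phosphatase that reverses the kinase, was 18.5 and 12.0 in shCTR and 14.7 and 9.82 in shMettl14, lower by 0.33 and 0.29 on the log2 scale within letters A and B (exact p = 0.667).

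**Figure D3:**
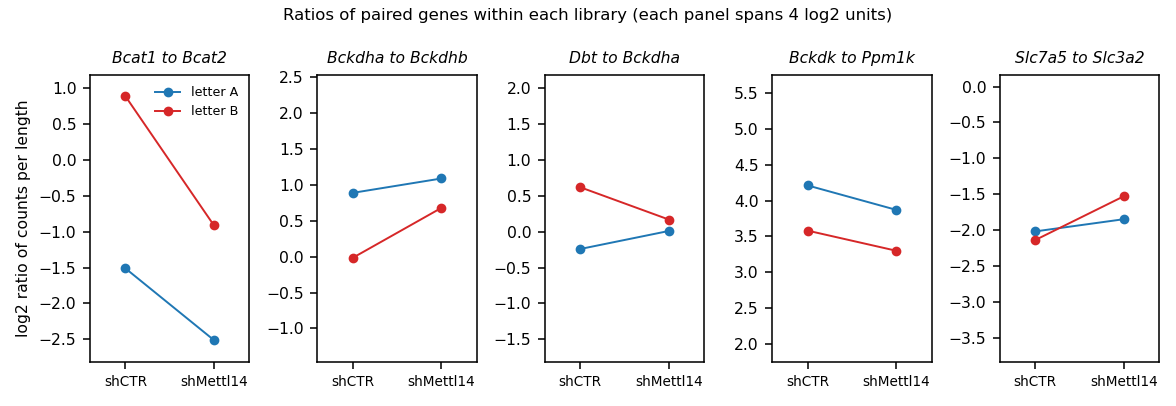
Log2 ratio of the reads per length of paired genes on the y axis in shCTR and shMettl14 on the x axis, 1 point per library, with libraries of the same letter joined and every panel spanning the same number of log2 units. *Bcat1* to *Bcat2* goes from -1.51 to -2.51 in letter A and from 0.89 to -0.91 in letter B, a wider change than in the other panels.

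Past the complex, the mitochondrial enzymes that break the carbon skeletons down and the proteins that serve them gave 0 calls of 20 at an adjusted and 0 at an unadjusted p under 0.05. Their log2 fold changes were small and more often above 0, with 16 above and 4 below. Of the 18916 genes tested, 9686 were above and 9230 below 0. The median of the list was 0.096 (0.034 in letter A and 0.16 in letter B). Within both letters, 10 of 20 were higher (50%, against 30.0% of all genes) and 2 were lower (10%, against 27.6%). The largest difference was that of *Slc25a44*, the carrier that takes branched-chain amino acids into mitochondria. It had 24.5 and 21.1 CPM in shCTR A and B and 31.8 and 34.4 CPM in shMettl14 A and B, with a log2 fold change of 0.54 (SE 0.21, adjusted p = 1.0). *Acadsb*, the isoleucine branch dehydrogenase with the highest CPM of the list, had 91.7 and 101 CPM in shCTR and 107 and 114 CPM in shMettl14, a log2 fold change of 0.19 (SE 0.19). The other genes with both shMettl14 libraries above both shCTR libraries were *Ivd*, *Acat1*, *Pcca* and *Mut*, and those below were *Hibch* and *Hsd17b10*. In this way 6 of 20 genes were above, against 14.7% of all genes tested, and 2 were below, against 13.3%.

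Of 9 other carriers of neutral amino acids, large or small, 0 passed either p, and the median log2 fold change was 0.042. The one of highest CPM, *Slc38a2*, a sodium-coupled carrier of small neutral amino acids, had 324 and 624 CPM in shCTR A and B and 323 and 653 CPM in shMettl14 A and B. Like *Bcat1* it was higher in B than in A in both groups, and its log2 fold change between the groups was 0.042 (SE 0.47). Of 10 genes that make or use glutamate, the product of both aminotransferases, 0 passed either p, with a median of -0.061. *Glud1*, glutamate dehydrogenase, had 246 and 180 CPM in shCTR and 216 and 200 in shMettl14.

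Leucine is also a signal, sensed by Sestrins upstream of the kinase complex mTORC1. Of 25 genes for amino acid sensing and mTORC1, not all of them specific to leucine, 0 passed either p. Their log2 fold changes were below 0 for 14 and above 0 for 11, with a median of -0.074. *Sec13*, a shared subunit of the GATOR2 complex and of secretory vesicle coats with the highest CPM of the list, had 186 and 139 CPM in shCTR and 153 and 134 in shMettl14. Of 6 regulators of branched-chain amino acid genes, 0 passed either p, with a median of 0.12. *Klf15*, known to drive this catabolism in muscle, had 2.59 and 0.824 CPM in shCTR A and B and 3.81 and 2.74 CPM in shMettl14 A and B (log2 fold change 0.94, SE 0.63, adjusted p = 1.0).

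The amino acid response is the program that the transcription factor ATF4 switches on when amino acids run short. Of its 16 genes, 13 had log2 fold changes below 0, against 9230 of the 18916 genes tested. The median was -0.18, with -0.33 in letter A and -0.072 in letter B. Within both letters, 8 of 16 were lower (50%, against 27.6% of all genes) and 1 was higher (6.25%, against 30.0%). The rest, *Atf4* among them, differed in direction between the letters. At an adjusted p under 0.05 0 passed, and at an unadjusted one 2 of 16 were lower, against 1.01% of all genes. *Nupr1*, a stress-induced chromatin protein gene, had 410 and 539 CPM in shCTR A and B and 249 and 257 CPM in shMettl14 A and B (log2 fold change -0.91, SE 0.22, adjusted p = 1.0). *Shmt2*, mitochondrial serine hydroxymethyltransferase, was named after its values were seen, and had 84.8 and 95.3 CPM in shCTR and 65.3 and 62.8 CPM in shMettl14 (log2 fold change -0.49, SE 0.19, adjusted p = 1.0). *Pycr1*, which completes proline synthesis, had 28.4 and 20.1 CPM in shCTR and 18.8 and 14.8 CPM in shMettl14, a log2 fold change of -0.53 (SE 0.28). *Slc7a11*, the cystine and glutamate exchanger gene, also named after its values were seen, had the largest positive log2 fold change of the list (0.58, SE 0.71), with 17.0 and 60.1 CPM in shCTR and 33.8 and 81.7 CPM in shMettl14. *Atf4* itself had 301 and 170 CPM in shCTR and 237 and 208 CPM in shMettl14, so that the groups overlapped. *Slc7a5* and *Slc3a2*, which are known targets of the same program, are not in this list.

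**Figure D4:**
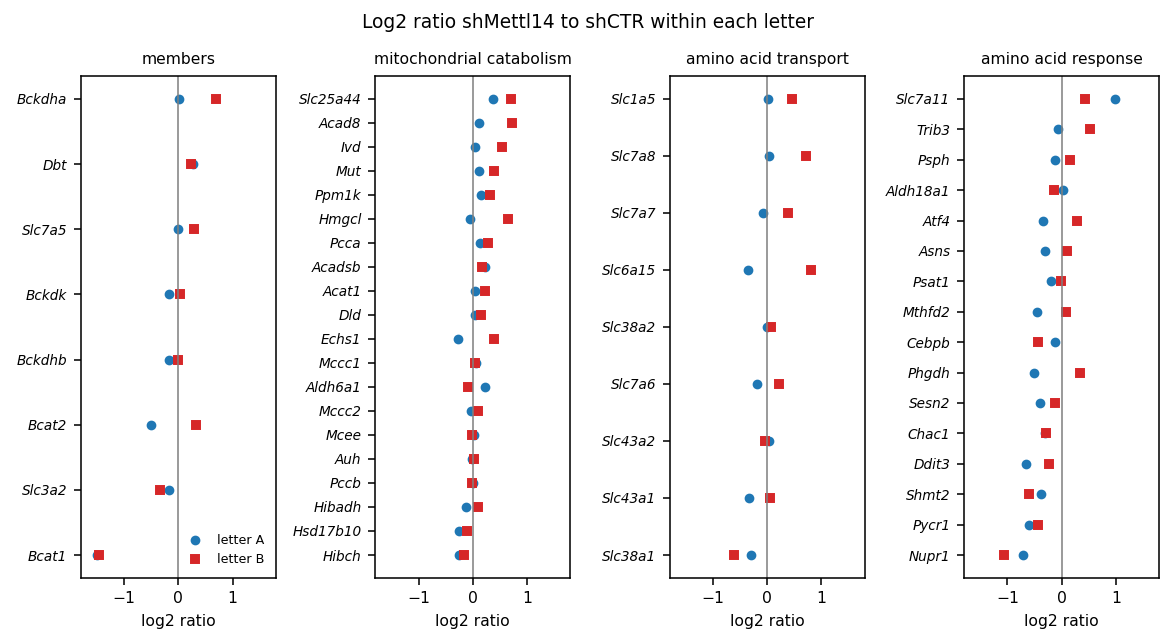
Log2 ratio of shMettl14 to shCTR within letter A (circles) and letter B (squares) on the x axis for the 8 genes, the genes of mitochondrial catabolism, the amino acid carriers and the amino acid response genes, each list in order of its ratios. *Bcat1* lies at -1.51 and -1.47, outside the spread of its 7 partners, and *Nupr1* at -0.72 and -1.07.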

How the data were processed

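Counts of reads per gene symbol were deposited by the authors for 4 mRNA-seq libraries of primary mouse VSMCs, without normalization. Per the labels and the methods, libraries were poly-A enriched and strand-specific, reads were mapped with STAR to mm10 (GRCm38) and counted with featureCounts. Tool versions and the strand setting of the counting are not given in the sources used here.

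Groups were taken from the sample labels. All 18916 genes that passed filterByExpr were fitted in edgeR 4.0.16 (R 4.3.3) with TMM factors and a robust quasi-likelihood test of shMettl14 against shCTR without a block, two-sided, with Benjamini-Hochberg adjustment over all genes. The standard error is the absolute log2 fold change over the square root of F. Ratios within a letter are differences of log2 CPM with a prior count of 2. RPKM used merged exons of the GENCODE M21 annotation on GRCm38. The fit was tested on simulated counts without a letter effect and with less spread than these libraries, so that test does not gauge its power here. Alternatives were DESeq2 1.42.0, other size factors and filters, the letters as pairs, each library left out, library totals, another prior count and the longest transcript as the length.

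The genes and lists were chosen with earlier results of these data known. Named are the 8 genes, *Mettl14*, the 5 genes nearest to *Bcat1* and, in each of the pathway lists, the gene of highest CPM and those with an absolute log2 fold change of at least 0.5 whose groups did not overlap. Genes named beyond this rule were chosen after their values were seen. Intervals and limits cover counting error only.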

Additional observations from a re-analysis of the deposited data

How the results depend on the processing

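The number of genes called was 0 in the main test, 5 with DESeq2, 9 with the replicate block and between 0 and 1 when 1 library was left out, the 1 being without shCTR B. Of the 8 genes, 1 (*Bcat1*) was called with the replicate block and 0 otherwise, with a range of 0 to 0 over the libraries left out. Fitted with the letters as pairs, *Bcat1* had a log2 fold change of -1.49, and the block lowered the common dispersion from 0.178 to 0.0418. Deviations of libraries of the same letter from their group means correlated at 0.578 across genes. Libraries of the same letter thus varied together, but no label ties a letter to a culture and there are only 2 pairs. What the libraries of a letter have in common is not known. The main fit and its standard errors made no use of the letters. Left-out libraries turned the direction of 4 genes: *Bcat2* (range -0.50 to 0.33) and *Bckdk* (-0.17 to 0.015), both above 0 without shCTR A, *Bckdha* (-0.033 to 0.74), below 0 without shCTR B, and *Bckdhb* (-0.25 to 0.067), above 0 without shMettl14 A. The causes were not tested. Size factors, filters and DESeq2 turned the direction of none of the 8, and moved *Bcat1* only between -1.49 and -1.46. Scaled by library totals, the log2 ratios of *Bcat1* were -1.43 in letter A and -1.33 in letter B. The median of the amino acid response list lay between -0.42 and -0.055 and that of mitochondrial catabolism between 0.059 and 0.21 over the libraries left out. The other medians changed sign over the libraries left out: amino acid carriers -0.16 to 0.28, glutamate genes -0.092 to 0.053, amino acid sensing and mTORC1 -0.11 to 0.051 and regulators -0.0013 to 0.21. With 2 libraries per group, each estimate with 1 left out assumes that the lone library varies like the other group.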
